A study of Mus musculus with 8 samples.

Results

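Transport vesicles carry new proteins and lipoproteins from the endoplasmic reticulum (ER) to the Golgi and bring escaped ER proteins back. A set of 49 genes for this traffic was taken by symbol from a table of 54532 mouse genes: the COPII and COPI coats, ER exit site organisers, cargo receptors, p24 proteins, KDEL receptors, ARF GTPases with their exchange factor, and SNAREs. RNA was sequenced from MA-10 cells, a line from a mouse Leydig cell tumour whose progesterone output follows cAMP. There were 4 libraries of WT cells and 4 of cells in which Cas9 and guides against Mttp had been used (KO). Mttp encodes the lipid-transferring subunit of the microsomal triglyceride transfer protein, MTP, which loads lipid onto apolipoprotein B in the ER. All 8 libraries came from cells cultured for 48 h and then given 0.5 mM 8-BrcAMP, a cell-permeable cAMP analog, for 3 h, so the comparison is between stimulated cells and says nothing about resting ones. KO cells are clonal, and the sources used here do not name the clone behind these libraries, so an effect of the knockout and an effect of clonal growth cannot be told apart. The labels do not say that the libraries of a group came from separate cultures, so p-values measure only the spread between these libraries.

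The COPII coat forms at ER exit sites: SAR1 binds the membrane, SEC23 with SEC24 makes the inner layer and picks cargo, and SEC13 with SEC31 closes the outer cage. Cargo that cannot touch the coat itself is linked to it by receptors, among them SURF4 for lipoproteins, and large cargo needs the organisers TANGO1 (Mia3) and cTAGE5 (Mia2). The COPI coat, recruited by ARF GTPases after GBF1 has loaded them with GTP, returns KDEL-tagged ER proteins and empty receptors from the Golgi. In several mammalian cell types, coat genes are known to be raised by XBP1 and by factors of the CREB3 family when secretory load increases.

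One DNA sequence recurred before the members' start sites. RefSeq promoter windows (build GRCm38.p6, 250 bases before to 50 bases after the start, 300 bases in all) were matched by symbol for 44 of the 49 members, in 51 windows. Lman1, Tmed2, Tmed7, Kdelr2 and Arcn1 had no entry. The UPR element TGACGTGG, a sequence of 8 bases known to be bound by XBP1, was searched on both strands and was present in 8 of the 44 members (18.2%), against 193 of all 27025 genes in the promoter table (0.714%). These are the 8 stretches of 28 bases, shown because they are the only ones of this kind in the set, each 5′ to 3′ on the strand of its gene with the match in capitals.
Sec24d, chr3:123267460-123267487, plus strand: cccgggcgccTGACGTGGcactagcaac
Copb2, chr9:98563714-98563741, plus strand: cccggaagttCCACGTCAgtgggttggc
Kdelr3, chr15:79516368-79516395, plus strand: ggccgccccgCCACGTCAccgcgcggcc
Gbf1, chr19:46152536-46152563, plus strand: aggctagttaCCACGTCAgtgagctgac
Copb1, chr7:114254691-114254718, minus strand: ccgcccccttCCACGTCAgccaaggact
Arf1, chr11:59228229-59228256, minus strand: cggcaggcgcTGACGTGGctgccgtcag
Sec23a, chr12:59011994-59012021, minus strand: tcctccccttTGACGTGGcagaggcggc
Sec16b, chr1:157506742-157506769, plus strand: tctgtgtggcTGACGTGGcacggcagtt

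In 4 of them (Sec24d, Arf1, Sec23a and Sec16b) the match reads TGACGTGG along the gene, and in the other 4 its reverse complement. Arf1 has overlapping windows from a pair of RefSeq starts, and its match lies at base 22 after the one and 84 bases before the other. Outside Arf1, the matches began between 44 bases before and 7 bases after the start. A match is a string of letters and does not show that a factor was bound. Of these 8 genes, 3 fell in KO cells (Sec24d, Copb2 and Kdelr3), 1 rose (Gbf1), 3 did neither (Copb1, Arf1 and Sec23a) and 1 was too low to test (Sec16b). After centring on chromosome medians Sec24d was no longer called (-0.10, edgeR adjusted p = 0.179), nor was Gbf1 (-0.06, edgeR adjusted p = 0.608). Sorted by call, the element stood in 3 of the 17 members with a window that fell and in 3 of the 23 that did neither. Counting only tested genes with a window, the element was in 7 of 42 members and in 101 of all 9545 genes (1.06%). Of those 101 genes, 28 rose and 25 fell, with a median log2 fold change of 0.01. The shorter CCACG, which every UPR element match contains, was in 32 of 44 members (72.7%) and in 35.5% of all genes. Among tested genes with a window, it was in 31 of 42 members and in 52.7% of all 9545. The ER stress element (CCAAT, any 9 bases, CCACG) was in 0 members and 0.137% of all genes, and its shorter form (ATTGG, any base, CCACG) in 0 members and 0.0444%. The cAMP response element TGACGTCA was in 1 member, Cope, and in 2.03% of all genes.

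KO and WT cells differed moderately in this set. By the edgeR quasi-likelihood test with Benjamini-Hochberg adjustment over all 13185 tested genes (called at adjusted p under 0.05), 2 of 47 tested members rose, 17 fell and 28 did neither. The members called (40.4%) were about as frequent as called genes in the whole table (42.7% of tested genes, 21.7% higher and 21.1% lower in KO cells), and most lay on the lower side. Among the 9267 tested genes in the members' range of mean level, 47.7% were called. The median absolute log2 fold change was 0.11 in members, 0.20 in all tested genes and 0.17 in that range. The median log2 fold change (KO over WT) was -0.08 over the members and -0.0019 over all tested genes, and 35 of the 47 members were below 0. Most changes were small: with an absolute log2 fold change above 0.5 as well, 4 members were lower and 0 higher, against 8.44% and 7.35% of tested genes. The 4 were Arf4, Kdelr3, Copg1 and Sec24b, of which 2 remained past that limit without WT library 1. No member was past it on the higher side at an unadjusted p under 0.05, with DESeq2 or with limma voom, and 1 was without KO library 1 or WT library 1. The values of the 8 libraries did not overlap between the groups for 18 members, KO cells being lower in 16 and higher in 2 of them. The groups did not overlap for 38.6% of all tested genes, with KO cells lower in 18.9% and higher in 19.7%. Because RNA came from whole cultures, fewer cells expressing a gene and less RNA per cell cannot be told apart.

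**Figure D1:**
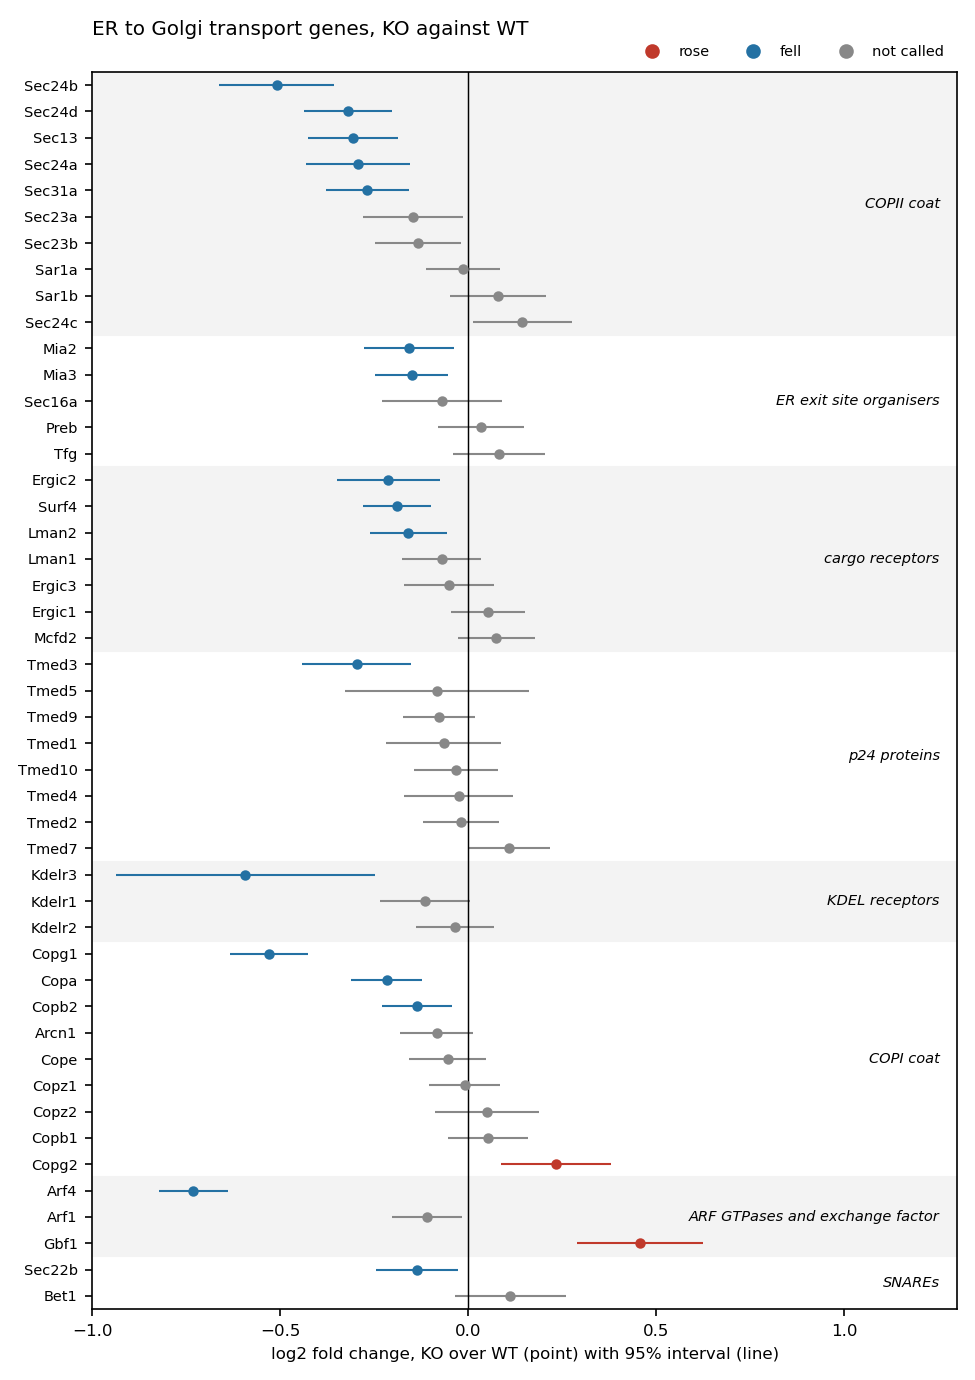
Log2 fold change of each tested member, KO over WT (horizontal axis; points, with 95% intervals as lines), grouped by role and coloured by the call over all tested genes. Arf4 is lowest at -0.73 and Gbf1 highest at 0.46 (-0.06 when centred on chromosome 19), and every role group has at least 1 member that fell, in the SNAREs only Sec22b (0.09 when centred on chromosome 3).

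Position on the genome moved with some of these values. Tested genes of chromosome 19 had a median log2 fold change of 0.51 and those of chromosome 3 a median of -0.22, members excluded. Of the tested members, Gbf1 lies on chromosome 19, and Sec24b, Sec24d and Sec22b lie on chromosome 3. The targeted gene, Mttp, lies on chromosome 3 as well (chr3:138089854-138144968, minus strand). Leaving out both chromosomes, an alternative added after the data were seen, left 43 tested members, of which 1 rose and 14 fell (34.9%, against 40.7% of tested genes off these chromosomes). Fold changes centred on the chromosome's median are therefore given beside those 4 members, and beside any other gene named below whose call they change. What gave whole chromosomes these medians was not tested.

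Added together, the 49 members took 6602, 6497, 6557 and 6579 CPM in WT libraries 1 to 4, where CPM stands for counts divided by the TMM-adjusted size of each library. In KO libraries 1 to 4 they took 5947, 6068, 6030 and 6060 CPM. Every KO library was below every WT library, and the mean went from 6559 ± 45.1 to 6026 ± 55.5 CPM (mean ± SD, n = 4), a ratio of 0.919. The ratio was 0.826 for the ARF group, which sums only Arf1, Arf4 and Gbf1 and leaves out the other ARF genes. It was 0.893 for COPII, 0.908 for COPI, 0.957 for cargo receptors and 0.944 for SNAREs. For KDEL receptors it was 0.954, for ER exit site organisers 0.96 and for p24 proteins 0.978. The KO libraries were all below the WT libraries in the first 4 of these 8 groups and overlapped them in the other 4. No test was made on these sums, in which abundant genes weigh most.

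The ARF group held both the lowest and the highest log2 fold change of the set, the latter (Gbf1) reversed by centring on chromosome 19. Arf4 (chr14:26638074-26665084, plus strand) is a small GTPase of the early Golgi that recruits COPI. It had 379, 384, 366 and 374 CPM across WT libraries 1 to 4, against 217, 225, 230 and 233 CPM across KO libraries 1 to 4. The groups were more than 100 CPM apart, and the log2 fold change was -0.73 (SE 0.0434, edgeR adjusted p = 2.24e-09). The annotated Arf4 gene overlaps Pde12 on the other strand by 5127 bases. Pde12 itself had a log2 fold change of 0.02 (edgeR adjusted p = 0.854). The Arf4 window is shown whole as that of the member with the smallest adjusted p. It holds none of the UPR, ER stress and cAMP response elements, and capitals mark its single CCACG, which begins 103 bases before the start.
Arf4, chr14:26637884-26638183, plus strand: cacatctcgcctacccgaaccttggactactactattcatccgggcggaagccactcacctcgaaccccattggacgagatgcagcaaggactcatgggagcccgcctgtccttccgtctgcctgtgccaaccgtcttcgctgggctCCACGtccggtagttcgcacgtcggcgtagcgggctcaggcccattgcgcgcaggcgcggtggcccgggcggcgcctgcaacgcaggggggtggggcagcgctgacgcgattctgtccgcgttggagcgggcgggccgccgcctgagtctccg

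Arf1, the main ARF of the Golgi, was the most abundant member per length, at 197 CPM per kb in WT cells. It had 416, 401, 414 and 419 CPM in WT libraries and 367, 403, 383 and 376 CPM in KO libraries, with KO library 2 inside the WT range. Its log2 fold change of -0.11 was not called (SE 0.0442, edgeR adjusted p = 0.0579). Arf1 was called lower in 5 of 16 settings, among them DESeq2 (adjusted p = 0.0465) and leaving out KO library 2 (edgeR adjusted p = 0.0298). Of the summed Arf1 and Arf4 levels per kb, Arf1 made up 65.4 ± 0.806% in WT and 74.4 ± 0.806% in KO cells, and the libraries of the groups did not overlap. Gbf1 (chr19:46152509-46286510, plus strand), the exchange factor that activates these ARFs, had 85.3, 79.0, 80.9 and 64.9 CPM in WT and 95.2, 114, 102 and 114 CPM in KO libraries. All KO libraries were higher, with a log2 fold change of 0.46 (SE 0.079, edgeR adjusted p = 0.000219), but centred on the median of chromosome 19 the value was -0.06 (edgeR adjusted p = 0.608).

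COPI showed 3 subunits that fell, 1 that rose and 5 that did neither. Copg1 (chr6:87887814-87913595, plus strand) encodes a gamma subunit, part of the adaptor-like layer that binds cargo tails. It had 226, 205, 203 and 205 CPM across WT libraries 1 to 4, against 144, 150, 144 and 143 CPM across KO libraries 1 to 4. The groups were over 50 CPM apart, and the log2 fold change was -0.53 (SE 0.0486, edgeR adjusted p = 3.02e-07). Copg2 (chr6:30747554-30896794, minus strand), its paralog, moved the other way. It had 28.9, 26.8, 30.6 and 33.0 CPM in WT libraries and 35.7, 33.4, 35.4 and 35.7 CPM in KO libraries. Although WT library 4 and KO library 2 nearly met, the groups did not overlap, and the log2 fold change was 0.23 (SE 0.0688, edgeR adjusted p = 0.0121). Per kb, Copg2 supplied 23.4 ± 2.02% of the gamma subunit transcripts in WT and 34.2 ± 1.15% in KO cells, while the family total went from 24.9 ± 0.993 to 20.02 ± 0.0582 CPM per kb. The sources used here do not state how reads that match both paralogs were counted.

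Copa, the alpha subunit, had 528, 503, 482 and 482 CPM in WT and 423, 429, 424 and 441 CPM in KO libraries. The groups were apart, with a log2 fold change of -0.22 (SE 0.0445, edgeR adjusted p = 0.000943). Its annotation overlaps that of Ncstn on the other strand by 267 bases, and Ncstn had a log2 fold change of -0.02. Copb2, the beta prime subunit that with alpha forms the outer layer, had a log2 fold change of -0.14 (SE 0.0438, edgeR adjusted p = 0.0189), from 170 ± 3.18 to 155 ± 3.25 CPM. That call passed in 12 of 16 settings, with a highest edgeR adjusted p of 0.0974. Among the settings that lost it were those without KO library 3 (edgeR adjusted p = 0.0584) and without KO library 4 (edgeR adjusted p = 0.0511). The beta subunit Copb1 (0.05), the zeta subunits Copz1 (-0.01) and Copz2 (0.05), the epsilon subunit Cope (-0.05) and the delta subunit Arcn1 (-0.08) were not called. Copz1 was called lower after centring on chromosome 15 (-0.12, edgeR adjusted p = 0.0487). Thus the log2 fold changes of subunits of the same coat ranged from -0.53 to 0.23.

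**Figure D2:**
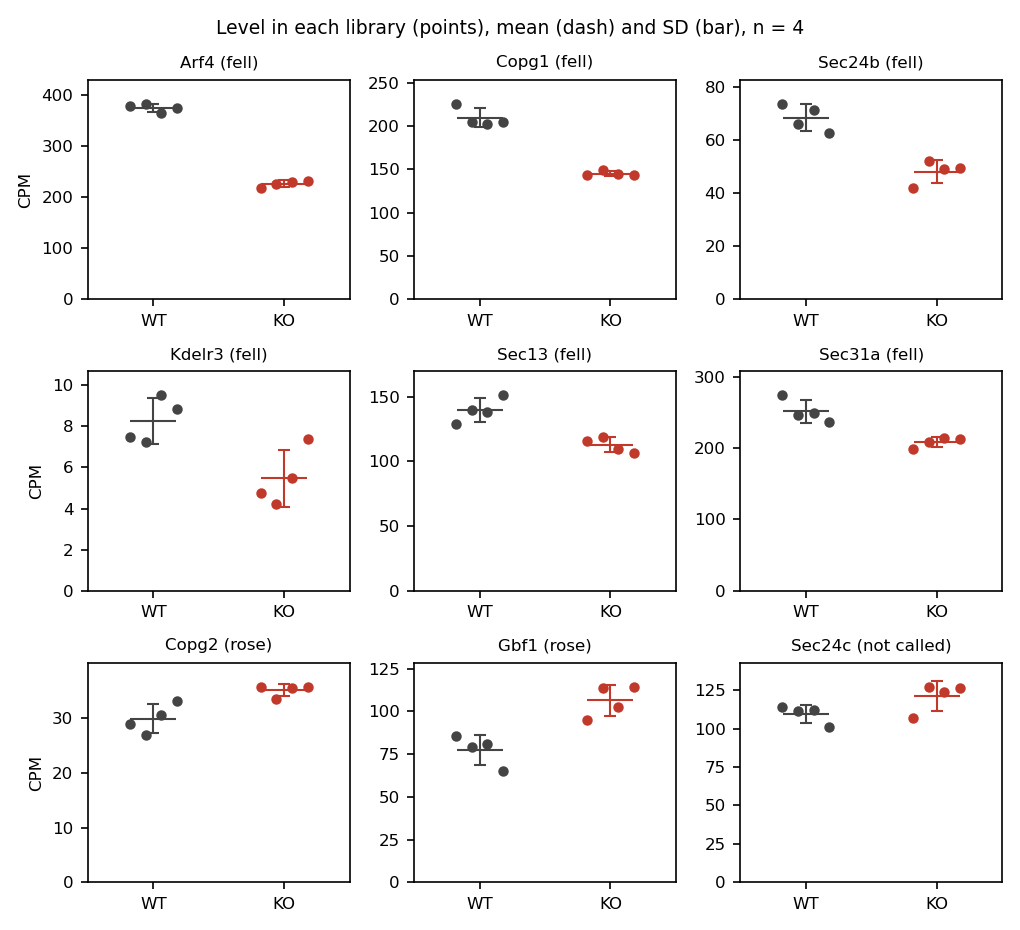
Level of 9 members in each library (points; vertical axis in CPM from 0), with the group mean as a dash and the SD as a bar (n = 4 per group). Arf4 and Copg1 are far apart between groups, Copg2 and Gbf1 are higher in KO cells (Gbf1 at -0.06 on the log2 scale when centred on chromosome 19), and Kdelr3 and Sec24c overlap.

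The outer and inner layers of COPII were lower in part. Of the 10 tested COPII genes, 5 fell and 0 rose by edgeR, DESeq2 and limma voom alike. Of the 5 not called, 3 had an unadjusted p under 0.05: Sec23a and Sec23b with values below 0 and Sec24c with a value above 0. Sec13 (chr6:113728062-113740743, minus strand), a cage protein also found in the nuclear pore, had 129, 140, 138 and 151 CPM in WT libraries and 116, 119, 110 and 107 CPM in KO libraries. Its partner Sec31a (chr5:100361649-100416234, minus strand) had 274, 246, 249 and 236 CPM in WT and 199, 209, 214 and 213 CPM in KO libraries. For both genes all KO libraries were lower, and the log2 fold changes were -0.31 for Sec13 (SE 0.0566, edgeR adjusted p = 0.000377) and -0.27 for Sec31a (SE 0.0522, edgeR adjusted p = 0.0006). Sec31b, the other SEC31 gene, had 1 to 7 counts per library and was not tested.

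The 4 SEC24 paralogs, which differ in the cargo signals they bind, did not move alike. Sec24b (chr3:129982759-130061553, minus strand) had 73.7, 66.0, 71.3 and 62.5 CPM in WT and 41.8, 52.0, 49.0 and 49.4 CPM in KO libraries. It had the lowest fold change of the coat, -0.51 on the log2 scale (SE 0.0721, edgeR adjusted p = 3.08e-05), and stayed called after centring on chromosome 3 (-0.29, edgeR adjusted p = 0.00481). Sec24a had 56.6, 54.9, 52.2 and 46.6 CPM in WT and 41.7, 41.9, 43.7 and 44.4 CPM in KO libraries, without overlap, and a log2 fold change of -0.29 (SE 0.065, edgeR adjusted p = 0.00178). Sec24d (chr3:123267455-123365641, plus strand) had 113, 107, 104 and 116 CPM in WT and 84.6, 94.1, 83.5 and 90.7 CPM in KO libraries. All KO values were lower and the log2 fold change was -0.32 (SE 0.0547, edgeR adjusted p = 0.000198), but after centring on chromosome 3 it was -0.10 and was not called (edgeR adjusted p = 0.179).

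Sec24c had 114, 112, 112 and 101 CPM in WT libraries and 107, 127, 124 and 126 CPM in KO libraries. KO library 1 lay within the WT range, and the log2 fold change of 0.14 was not called (edgeR adjusted p = 0.0733). Without KO library 1 it was 0.20 and called (edgeR adjusted p = 0.00937). As a share of SEC24 transcripts per kb, Sec24c made up 34.1 ± 1.05% in WT and 42.5 ± 1.05% in KO cells, and Sec24b 22.2 ± 0.998% and 17.7 ± 0.573%. The groups did not overlap in either share, while the shares of Sec24a and Sec24d did. These shares were not tested, and the fall of Sec24b raises the share of the others by construction.

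**Figure D3:**
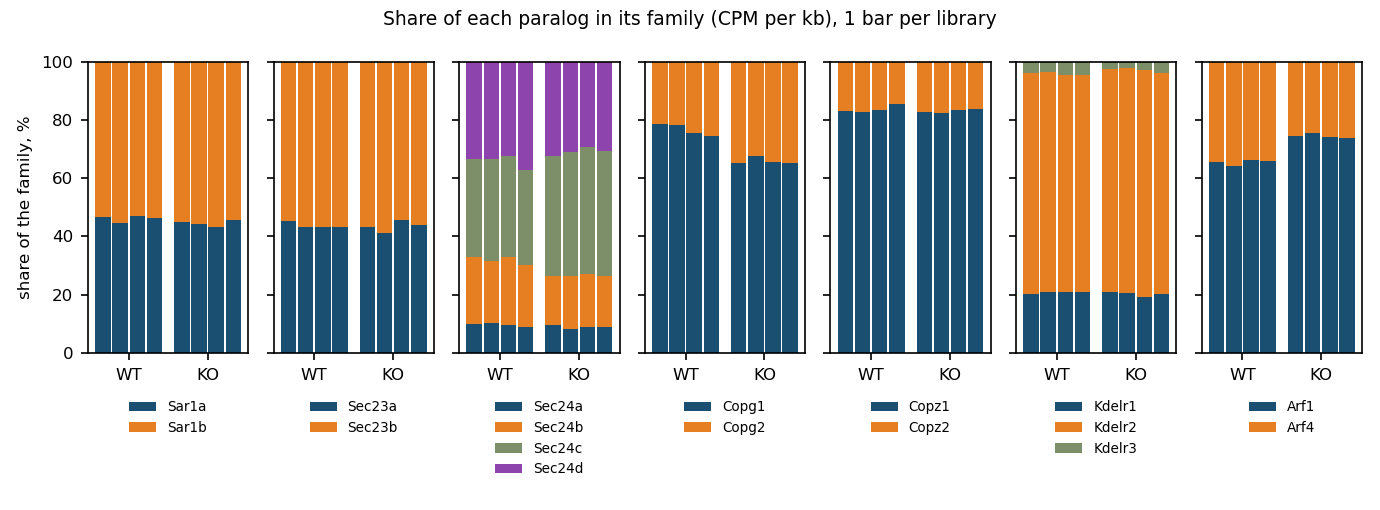
Share of each paralog in the summed CPM per kb of its family (vertical axis, %), with 1 stacked bar for each of the 4 WT and 4 KO libraries. The ARF panel sums Arf1 and Arf4 only, so that Arf2, Arf3, Arf5 and Arf6 are left out. The SAR1, SEC23 and COPZ shares look alike in both groups. On average Copg2 goes from 23.4% to 34.2%, Sec24c from 34.1% to 42.5%, and Arf1 from 65.4% to 74.4% of the Arf1 and Arf4 sum.

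The GTPases that start the coat showed no call. Sar1a had 175 to 185 CPM in WT and 172 to 187 CPM in KO libraries (log2 fold change -0.01, 95% interval -0.11 to 0.09). Sar1b, which in humans is needed for the export of chylomicrons, had 66.9 to 72.9 CPM in WT and 68.2 to 81.8 CPM in KO libraries (0.08, 95% interval -0.05 to 0.21). Sar1b and Sec24a lie back to back on chromosome 11 with starts 53 bases apart in the count table's annotation. The RefSeq promoter table gives Sec24a another start, with its window at chr11:51756785-51757084. Sec24a fell and Sar1b was not called. Whether those 2 fold changes differ from each other was not tested. The Sar1b window is shown because it also covers the start of Sec24a in the count table's annotation, with capitals for the 52 bases between the starts. It holds no UPR element.
Sar1b, chr11:51763413-51763712, plus strand: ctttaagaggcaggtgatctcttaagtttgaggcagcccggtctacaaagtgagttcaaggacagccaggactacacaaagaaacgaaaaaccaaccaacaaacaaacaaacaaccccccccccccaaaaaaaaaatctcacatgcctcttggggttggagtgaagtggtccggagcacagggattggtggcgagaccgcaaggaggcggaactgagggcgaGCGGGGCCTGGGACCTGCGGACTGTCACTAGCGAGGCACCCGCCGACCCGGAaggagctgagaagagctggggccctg

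Sec23a and Sec23b, the inner-coat proteins that switch off SAR1, had log2 fold changes of -0.15 (edgeR adjusted p = 0.0695) and -0.13 (edgeR adjusted p = 0.058) and were not called. Sec23a was called only without WT library 3 (-0.18, edgeR adjusted p = 0.0472). Sec23b was called lower in 2 of 16 settings. These were at least 10 counts in every library (edgeR adjusted p = 0.0389) and library totals without TMM (edgeR adjusted p = 0.04). Their shares of SEC23 transcripts per kb were near equal in both groups, with Sec23a at 43.8 ± 1.04% in WT and 43.5 ± 1.87% in KO cells.

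Among the ER exit site organisers, 2 of 5 tested genes fell and 0 rose by edgeR. With DESeq2, 1 fell (Mia3). At an unadjusted p under 0.05, with DESeq2 or with limma voom, 0 rose. Mia3 encodes TANGO1, which couples large cargo such as procollagen and lipoproteins to the coat. It had 137, 134, 132 and 132 CPM in WT and 122, 116, 119 and 125 CPM in KO libraries, without overlap. Its log2 fold change was -0.15 (SE 0.0459, edgeR adjusted p = 0.0148). That call was lost by a narrow margin without KO library 2 (edgeR adjusted p = 0.0511), and with no filter beyond 1 count (edgeR adjusted p = 0.0698). Mia2, its partner at the same sites, had 53.7, 49.65, 49.9 and 49.8 CPM in WT and 43.6, 45.7, 47.9 and 44.7 CPM in KO libraries. The groups did not overlap, and the log2 fold change was -0.16 (SE 0.0562, edgeR adjusted p = 0.0323). That call passed in 6 of 16 settings and was lost under the others. Among these were DESeq2 (adjusted p = 0.059) and centring on chromosome 12 (-0.07, edgeR adjusted p = 0.333). The call was also lost when any of WT libraries 1 to 3 or KO libraries 1, 2 and 4 was left out (edgeR adjusted p between 0.0525 and 0.106). Per kb, Mia3 made up 87.0 ± 0.26% of the pair in WT and 87.1 ± 0.695% in KO cells. The scaffold Sec16a (-0.07), the oligomeric organiser Tfg (0.08) and Preb (0.03), the exchange factor that activates SAR1, were not called. Sec16b had 0 or 1 count per library.

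Of the 7 cargo receptors, 3 fell and 0 rose by edgeR, and 0 rose at an unadjusted p under 0.05, with DESeq2 or with limma voom, while 1, Mcfd2, rose after centring on chromosome medians. Surf4 had 95.8 CPM per kb in WT cells, above the 88.8 CPM per kb of Mcfd2, and 84.1 CPM per kb in KO cells, below the 93.5 CPM per kb of Mcfd2. It had 325, 309, 317 and 306 CPM in WT and 278, 272, 276 and 277 CPM in KO libraries, so that every KO library was at least 10 CPM below every WT library, and its log2 fold change was -0.19 (SE 0.0422, edgeR adjusted p = 0.00182). The annotated gene shares 144 bases with Surf2 on the other strand, and Surf2 had a log2 fold change of 0.25. Ergic2, a membrane protein of the intermediate compartment, had a log2 fold change of -0.21 (SE 0.0646, edgeR adjusted p = 0.0143), from 58.1 ± 2.42 to 50.1 ± 4.18 CPM. That call was lost without KO library 2 (edgeR adjusted p = 0.0559), without WT library 3 (edgeR adjusted p = 0.057) and after centring on chromosome 6 (-0.12, edgeR adjusted p = 0.173). Lman2, a lectin for glycoproteins with high-mannose chains, had a log2 fold change of -0.16 (SE 0.0481, edgeR adjusted p = 0.0141), from 164 ± 6.21 to 147 ± 5.17 CPM, and lost its call without KO library 1 (edgeR adjusted p = 0.0527) or WT library 3 (edgeR adjusted p = 0.0538).

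Lman1 and Mcfd2, which together form the receptor for blood coagulation factors, were not called, with log2 fold changes of -0.07 and 0.07. Mcfd2 was called higher after centring on chromosome 17 (0.13, edgeR adjusted p = 0.0425). Ergic1 (0.05) and Ergic3 (-0.05), the other members of the intermediate compartment family, were not called either. The intervals of these 4 genes together ran from -0.17 to 0.18 on the log2 scale.

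The p24 proteins, which pair up as receptors for lipid-anchored proteins and bind both coats, had 1 call among 8 tested genes. Tmed3 had 41.2, 44.9, 45.3 and 48.7 CPM in WT and 37.1, 40.2, 35.2 and 34.2 CPM in KO libraries. All KO libraries were lower, with a log2 fold change of -0.30 (SE 0.0684, edgeR adjusted p = 0.00234). Tmed7, a relative of Tmed3, was higher in all 4 KO libraries than in WT libraries 1 to 3 but not called (log2 fold change 0.11, edgeR adjusted p = 0.0913), and was called without WT library 4 (0.15, edgeR adjusted p = 0.023). The other 6 (Tmed1, Tmed2, Tmed4, Tmed5, Tmed9 and Tmed10) had log2 fold changes between -0.08 and -0.02, none called. Tmed2 and Tmed10, a pair at the core of p24 complexes, had 95% intervals of -0.12 to 0.08 and -0.15 to 0.08 on the log2 scale.

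KDEL receptors return ER chaperones that have slipped into the Golgi. Kdelr3, the rarest of them, had 7.47, 7.22, 9.52 and 8.83 CPM in WT and 4.74, 4.25, 5.50 and 7.37 CPM in KO libraries. KO library 4 reached into the WT range, and the log2 fold change of -0.59 (SE 0.162, edgeR adjusted p = 0.00768) had the widest interval of all members, -0.94 to -0.25. Its annotation overlaps that of Ddx17 on the other strand by 4 bases, and Ddx17 had a log2 fold change of 0.43. Kdelr2, which made up 74.9 ± 0.738% of receptor transcripts per kb in WT cells, had a log2 fold change of -0.04 and Kdelr1 one of -0.11 (edgeR adjusted p = 0.116), neither called. The family total was 136 ± 6.17 CPM per kb in WT and 129 ± 4.58 CPM per kb in KO cells, and its libraries overlapped between groups.

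Of the 2 SNAREs, which fuse vesicles with the next membrane, Sec22b (chr3:97901190-97923276, plus strand) was called lower by a narrow margin, with a log2 fold change of -0.14 (SE 0.0513, edgeR adjusted p = 0.0437). It passed in 6 of 16 settings, was not called with DESeq2 (adjusted p = 0.0615), and was at 0.09 after centring on chromosome 3 (edgeR adjusted p = 0.2). Sec22b also lost its call when any of KO libraries 1 to 4 or WT libraries 3 and 4 was left out (edgeR adjusted p between 0.0631 and 0.14). Bet1, its partner on ER-derived vesicles, was not called (0.11, edgeR adjusted p = 0.214), but was called higher after centring on chromosome 6 (0.21, edgeR adjusted p = 0.0265).

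Other genes of the pathway were counted in the same way. A list of 82 partner genes (SNAREs, tethers, the TRAPP complex, RAB and ARF GTPases with their regulators, other adaptors, and factors that raise coat genes) had 78 tested, of which 24 rose, 8 fell and 46 did neither. The share called was 41.0%, against 42.7% of all tested genes (21.7% higher and 21.1% lower in KO cells). Their median log2 fold change was 0.09. With the chromosome medians subtracted, 18 rose and 11 fell, so that higher genes went from 75.0% to 62.1% of those called. Whether the partner genes differ from the members was not tested, and both were compared over the same libraries. The partners were also chosen with earlier results of these data known.

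By list, 4 of 11 SNAREs rose and 1 fell. Nsf, the ATPase that takes SNARE complexes apart, had a log2 fold change of -0.30 (edgeR adjusted p = 0.000232). Stx5a, the syntaxin of the early Golgi, rose by 0.33 (edgeR adjusted p = 0.000162), but lies on chromosome 19. Centred on that chromosome's median, Stx5a was called lower (-0.18, edgeR adjusted p = 0.019). Of 15 tethers, 2 rose, with Cog2, of the COG tether, at 0.53 (edgeR adjusted p = 3.44e-06), and 2 fell, with Gorasp2, a Golgi stacking protein, at -0.37 (edgeR adjusted p = 2.87e-05). In TRAPP, a tether and RAB exchange complex, 4 of 14 rose and 0 fell, led by Trappc12 (0.43, edgeR adjusted p = 0.000582) and Trappc9 (0.24, edgeR adjusted p = 0.00164), the latter not called after centring on chromosome 15 (0.13, edgeR adjusted p = 0.062). No TRAPP gene fell at an unadjusted p under 0.05, with DESeq2 or with limma voom either.

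Among RAB and ARF GTPases and regulators, 6 of 15 rose and 2 fell. Rab1b, the RAB of ER to Golgi tethering, had a log2 fold change of 0.42 (edgeR adjusted p = 3.67e-06), but lies on chromosome 19. After centring, Rab1b was at -0.09 and not called (edgeR adjusted p = 0.148). Arf5, the closest relative of Arf4, had a log2 fold change of 0.27 (edgeR adjusted p = 0.000628), from 153 ± 8.76 to 184 ± 7.24 CPM, and was named after its values were seen. Of 17 other adaptors and exit factors, 5 rose and 2 fell. Tmed8 had 1.35, 1.26, 1.56 and 2.21 CPM in WT and 3.18, 4.45, 4.14 and 4.87 CPM in KO libraries, so that KO levels were all higher, though low (1.38, edgeR adjusted p = 8.45e-05). Bcap31, an ER export factor for membrane proteins, had a log2 fold change of -0.22 (edgeR adjusted p = 0.003).

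Of the 6 tested factors known to raise coat genes, 3 rose and 1 fell. Creb3l1, an ER membrane factor cut in the Golgi to become active, had 36.3, 30.8, 36.4 and 24.04 CPM in WT and 62.5, 62.4, 70.2 and 72.6 CPM in KO libraries. No KO library was below 60 CPM and no WT library above 40 CPM, and the log2 fold change was 1.07 (SE 0.103, edgeR adjusted p = 5.43e-07). Creb3 rose by 0.48 (SE 0.0509, edgeR adjusted p = 1.34e-06) and Creb3l2 by 0.47 (SE 0.0797, edgeR adjusted p = 0.000198). Xbp1 was the gene that fell, from 106 ± 5.46 to 81.3 ± 1.77 CPM. These are transcript levels, and the cut or spliced forms in which these factors act were not measured.

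**Figure D4:**
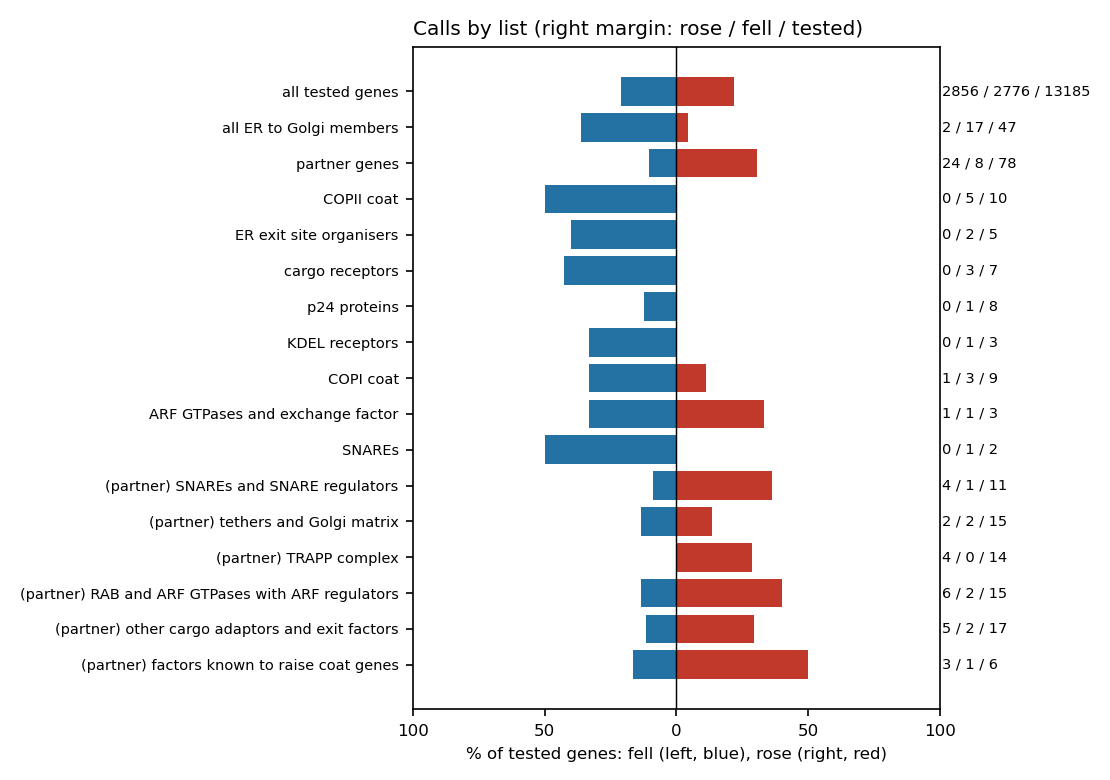
Share of tested genes that rose (red, right) or fell (blue, left) in KO cells at adjusted p under 0.05, for all tested genes, all members, each role group and each partner list (horizontal axis, %), with the counts at the right margin. Members gave 2 that rose and 17 that fell, partner genes 24 and 8.

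The libraries held 15075610 to 16321292 counts in WT and 14927989 to 18394797 in KO cells, and members took 0.65 to 0.661% of them in WT and 0.595 to 0.603% in KO cells. Mttp, the targeted gene, was lower in every KO library, at 4.52 to 7.13 CPM against 11.9 to 14.4 CPM. All 7 Leydig markers were tested, of which 4 rose, and Nr5a1, a defining factor of steroid-making cells, averaged 544 CPM in WT libraries and 549 CPM in KO libraries. Of 23 markers of Sertoli, germ, macrophage, endothelial and fibroblast or myoid cells, 8 were tested, 1 rose and 3 fell. Summed Sertoli markers went from 216 to 233 CPM in WT to 352 to 397 CPM in KO libraries through Rhox5, with Amh, Fshr and Wt1 under 1 CPM. Sox9, the other Sertoli marker, averaged 54.8 CPM in WT and 53.9 CPM in KO libraries and was not called. Summed endothelial markers went from 182 to 210 CPM down to 100 to 119 CPM through Cdh5, with Pecam1 and Tek under 1 CPM, and fibroblast markers from 7.95 to 12.5 CPM down to 0.427 to 0.578 CPM through Col1a1, with Dcn at 0. Macrophage markers summed to 9.13 to 14.3 CPM with Adgre1, Lyz2 and Ptprc at 0, and germ cell markers to 1.499 to 4.63 CPM with Tnp1 at 0. Of the macrophage markers, Csf1r fell (log2 fold change -0.79, edgeR adjusted p = 0.00082) and Cd14 was not called (0.26). The part of these markers in the members' values was not tested.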

How the data were processed

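Libraries of poly-T selected RNA were prepared with dTTP in the second strand. The authors deposited raw read counts per gene. Their processing notes name HISAT2 2.0.5 and featureCounts 1.5.0-p3 and list GRCh37, hg19 and mm39 without roles; 37648 of 37708 shared symbols (99.84%) overlap RefSeq positions on GRCm38.p6, so positions are of GRCm38. The sources used here state neither the strand setting nor how multimapping reads were counted. Groups follow the titles, since the genotype field reads wild type throughout.

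Counts were tested in R 4.3.3 with edgeR 4.0.16: filterByExpr (minimum count 10, total 15), TMM, and glmQLFTest with genotype only. SE is the log2 fold change over the root of F. CPM per kb divides by the gene length in the table. Alternatives used DESeq2 1.42.0, limma 3.58.1 voom, other scalings and filters, chromosome medians, a replicate block and each library left out. The biological coefficient of variation was 7.11%, and no library copied another. The fit was also run on simulated counts with the same coefficient of variation for every gene, few genes changed and no shift of whole chromosomes. That run does not show how the fit behaves where many genes or whole chromosomes shift, as here.

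Members, partner lists, markers and motifs were chosen with earlier results of these data known. All members are named, with full statistics for those called, and partners by the 2 smallest adjusted p per list, of which 1 gene is not reported here. Arf5, Xbp1 and Creb3l2 were added after their values were seen. Promoters came from RefSeq and were searched with Python 3.11, and figures were drawn with matplotlib 3.10.9.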

Additional observations from a re-analysis of the deposited data

Results flagged for a closer look

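Each group of 4 libraries was searched for a library far from the other 3, and 6 of 94 groups held one, where chance gives about 1 in 20. Copg1 was at 226 CPM in WT library 1 against 203 to 205 CPM in the other WT libraries, and Mia2 at 53.7 CPM in the same library against 49.7 to 49.9 CPM. Sec24c was at 107 CPM in KO library 1 against 124 to 127 CPM in the others, and Tmed7 at 131 CPM in the same library against 124 to 125 CPM. Copg2 was at 33.4 CPM in KO library 2 against 35.4 to 35.7 CPM, and Tmed10 at 175 CPM in that library against 163 to 164 CPM. Copg1 and Copg2 were called without these libraries too, Sec24c became called without KO library 1 (log2 fold change 0.20), and Mia2 lost its call without WT library 1 (-0.13).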

How the results depend on the processing

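Of the 19 members called, 11 were called in the same direction in all 16 alternative settings. The 17 that fell became 13 to 19 and the 2 that rose 2 to 3, with 14 to 16 and 2 to 3 when single libraries were left out. The 4 lower members past the fold limit became 2 after centring on chromosome medians and 2 to 4 with a library left out (2 without WT library 1), and the 0 higher ones 0 to 1 (1 without KO library 1 and 1 without WT library 1). Without genes of chromosomes 3 and 19, added after the data were seen, 1 member rose and 14 fell. After centring, Gbf1 (-0.057), Sec22b (0.087), Preb (-0.025), Tmed10 (0.053) and Tmed4 (0.001225) changed sign, as did Copz1 without a filter beyond 1 count (0.0018). With a library left out, values crossed 0 in Sar1a (-0.037 to 0.0079), Sec16a (-0.13 to 0.0028), Tmed2 (-0.037 to 0.016), Tmed4 (-0.085 to 0.014), Tmed5 (-0.18 to 0.030), Tmed10 (-0.065 to 0.011) and Copz1 (-0.028 to 0.020), none of them called. The cause was not tested.

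Same-numbered WT and KO libraries showed no clear shared deviation (r = -0.152, 0.0402, 0.0407 and -0.147). WT libraries 2 and 3 correlated best with their own number. WT library 1 correlated best with KO library 4 (r = 0.183), and WT library 4 with KO library 1 (r = 0.171). These values cannot show whether same-numbered libraries shared a culture or batch. With a replicate block, 2 members rose and 14 fell, and 19 partner genes rose and 7 fell. Small changes are limited by the spread between libraries: 95% intervals of the log2 fold change were mostly near 0.1 on either side, and near 0.34 for Kdelr3.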
